A study of Mus musculus with 24 samples.

Results

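The mitochondrial solute carriers of the SLC25 family were followed through activation of mouse CD4 T cells. Members were taken by name: every probe set whose platform annotation gave a single gene symbol beginning with Slc25a and a digit. This gave 50 probe sets for 46 genes, out of 35556 probe sets and 19938 genes in all. For the 3 carriers with several probe sets (Slc25a5, Slc25a36 and Slc25a40) the brightest was used, and the rule takes no other measured value. The carriers were sorted by the substrate each is known to move into 20 classes, the last of which holds the 9 genes whose substrate was treated as unsettled.

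The cells were naive CD4 T cells of 129SvEv mice, either wild-type (WT) or with a double knockout of Batf and Batf3, written Batf1/3DKO in the labels and DKO here. They were taken unstimulated at day 0, after 2 days of TH2 culture, or after 4 days of it with anti-CD3e at 2.2 or 10 ng/ml. That antibody engages the receptor complex and was given with anti-CD28. The series title asks how graded receptor signals are turned into graded transcription through Batf and Irf4. Each of the 8 groups held 3 arrays. For day 2 no anti-CD3e concentration is labelled, nor is the age of the mice or whether replicates were separate mice or cultures. The p-values therefore reflect only how far these samples spread, possibly for technical reasons.

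SLC25 carriers are nuclear-encoded proteins that sit, with few exceptions, in the inner mitochondrial membrane, which is closed to most charged molecules. They pass ADP, ATP, phosphate, citrate, malate, amino acids, nucleotides, cofactors and iron between the matrix and the cytosol, so they link respiration to synthesis in the rest of the cell. A naive T cell that is activated grows, divides and enlarges its mitochondria, and is known to export citrate for lipid synthesis and aspartate for nucleotide synthesis. Batf and Batf3 are basic leucine zipper factors of the AP-1 family, which bind DNA with Jun proteins and, at composite elements, with Irf4.

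Levels below are array intensities on a linear scale, as mean ± SD over 3 arrays, and cannot be compared between genes because each probe set has its own response. Fold changes are ratios of geometric means from limma with a 95% confidence interval (CI), and a gene was called when its Benjamini-Hochberg adjusted p over all 19938 genes was under 0.05. Within groups, pairs of arrays had correlations of 0.983 to 0.992 over genes. Batf, the first of the knocked-out genes, stood at 135 ± 20.9, 722 ± 137, 1509 ± 125 and 1595 ± 99.8 in WT cells from naive to 10 ng/ml, and at 31.2 ± 3.16 to 46.5 ± 4.87 over the DKO groups. Batf3 stood at 146 ± 32.8 in WT and 29.8 ± 4.56 in DKO cells at 10 ng/ml, and was low in the other groups of both. The 7 CD4 T cell markers lay above the median probe set (an intensity of 28.6) in every group. Markers of other cells summed to 51 to 153 (B cell, 4 genes), 61.1 to 126 (myeloid, 6 genes) and 53.1 to 76.6 (dendritic cell, 4 genes), with 3, 4 and 4 of them at or below that median in every group. The 2 CD8 markers summed to 42.9 to 106, the 3 erythroid markers measured to 73.2 to 99.5, and the 3 NK markers to 28.5 to 684, the last through Eomes at 2.2 ng/ml (200.2 ± 28 in WT and 599 ± 82.5 in DKO cells). Of the 46 carriers, 34 averaged above the median probe set. The other 12 (Slc25a2, Slc25a21, Slc25a24, Slc25a31, Slc25a33, Slc25a34, Slc25a41, Slc25a43, Slc25a47, Slc25a48, Slc25a53 and Slc25a54) may read largely background, and their folds understate any change.

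Activation moved carriers in both directions. In WT cells at day 2, 15 carriers were higher than in naive cells (32.6%, against 19.7% of all genes) and 9 lower (19.6%, against 20.5%), so 24 changed beside 40.2% of all genes. At 2.2 ng/ml the counts were 12 higher (16.1% of all genes) and 4 lower (13.1%), and at 10 ng/ml 15 higher (18.4%) and 6 lower (18%). Without WT replicate 3 at 2.2 ng/ml, the count at that dose dropped from 16 to 10. The median carrier hardly moved: its log2 change was 0.02, -0.02 and 0.03 in these comparisons, beside -0.11, -0.06 and -0.10 for the median gene. When the test was limited to genes above the median probe set, 20 of 34 carriers (58.8%) were called at day 2, against 61.8% of 10555 genes. At 10 ng/ml it was 21 of 34 (61.8%), against 55.7%. In DKO cells the shares were 41.2% against 51.5% at day 2, 26.5% against 36.8% at 2.2 ng/ml and 38.2% against 53.2% at 10 ng/ml. For genotype at 10 ng/ml they were 14.7% against 22.4%, and for dose in WT cells 17.6% against 27.4%. In none of these comparisons but WT cells at 10 ng/ml was the share of carriers above that of all genes so limited.

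**Figure D1:**
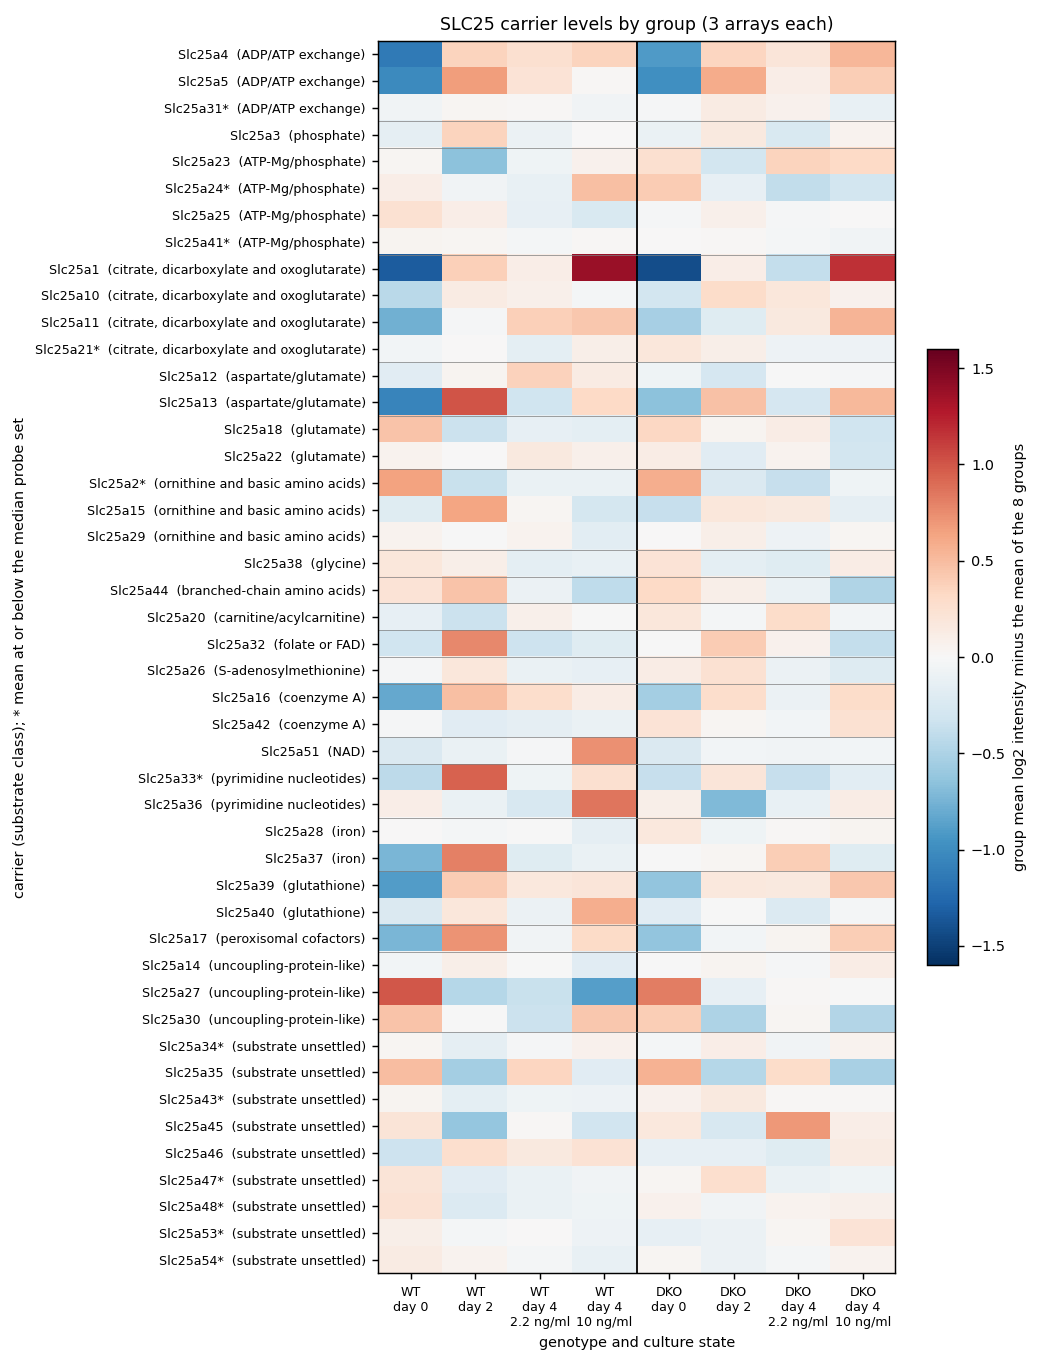
Mean log2 intensity of each of the 46 carriers in the 8 groups, minus the mean of that carrier over the groups. Rows are carriers in order of substrate class, with an asterisk for the 12 that average at or below the median probe set. Red is above and blue below the carrier's own mean. Slc25a4, Slc25a5, Slc25a1, Slc25a13 and Slc25a39 are low in both naive groups, Slc25a27 is high there, and Slc25a36, Slc25a51 and Slc25a40 are highest in WT cells at 10 ng/ml.

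Fewer carriers were called in DKO cells. At day 2, 8 were higher than in naive DKO cells (15.3% of all genes) and 5 lower (13.3%). The counts were 8 (11.6%) and 2 (8.28%) at 2.2 ng/ml, or 10 in either direction (19.9%), and 7 (16.4%) and 6 (14.3%) at 10 ng/ml, or 13 in either direction (30.7%). At day 2 the genotypes had 12 called carriers in common, 50% of the 24 called in WT and 92.3% of the 13 called in DKO cells, and all 12 moved the same way. At 10 ng/ml 11 were in common (52.4% of the WT list and 84.6% of the DKO list), again all the same way. A carrier called in one genotype and not the other is not thereby shown to differ, and the interaction tests below address that. Higher in all 3 activated states of both genotypes were 5 carriers: Slc25a1, Slc25a4, Slc25a5, Slc25a17 and Slc25a39. Lower in all of them was 1, Slc25a27. Another 15 were called in no comparison made here. The same overlaps and counts were not made over all genes, so none of them is read as particular to the carriers.

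Promoter sequence was read for these genes. RefSeq promoter windows of 300 bases (250 before and 50 after a transcript start, GRCm38.p6) were at hand for 36 of the 46 carriers. The E-box CACGTG, which reads the same on both strands and is the site bound by Myc with Max and by other factors of that family, was present in 7 of these (19.4%): Slc25a1, Slc25a13, Slc25a14, Slc25a15, Slc25a31, Slc25a33 and Slc25a36. It was present in 8.09% of 27025 genes with such windows. Of the 7, 4 (Slc25a1, Slc25a13, Slc25a15 and Slc25a33) were higher in WT cells at day 2, and 8 of the 29 carriers with a window and no E-box. The AP-1 letters TGANTCA, searched on both strands, were present in 2 carriers, Slc25a11 and Slc25a13 (5.56%, against 8.97% of genes). An AP-1 and interferon-response composite that Batf and Irf4 bind, GAAA joined to TGANTCA, was found in 0 of the 36 windows' genes, beside 0.141% of genes. The letters GAAA and TGANTCA with 4 bases between them were found in 0 as well, beside 0.178%. A spaced composite with TTTC in place of GAAA was not searched, so absence of the spaced Batf and Irf4 element is not shown. The CRE letters TGACGTCA were found in Slc25a25 and Slc25a36 (5.56%, against 2.03% of genes). The NRF1 motif was present in 2 carriers (5.56%, against 5.19%), the ETS letters CCGGAAGT in 1 (2.78%, against 4.31%), and the ATF4 composite letters TGATGNAA in 0, against 4.51% of genes.
3 of these promoters are shown, with the matched letters in capitals. Their genes changed with activation or dose and all 3 hold an E-box, so they do not stand for the carriers that changed most. Slc25a4, Slc25a5 and Slc25a39, which rose in all activated states, had windows with none of these motifs. The 3 shown lie on the minus strand and are written 5′ to 3′ toward the gene.
Slc25a1, chr16:17928220-17928469: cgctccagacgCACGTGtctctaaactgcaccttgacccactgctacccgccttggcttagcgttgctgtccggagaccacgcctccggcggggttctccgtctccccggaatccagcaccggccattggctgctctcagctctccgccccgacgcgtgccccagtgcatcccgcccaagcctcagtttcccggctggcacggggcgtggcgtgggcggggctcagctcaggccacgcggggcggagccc
Slc25a36, chr9:97111042-97111291: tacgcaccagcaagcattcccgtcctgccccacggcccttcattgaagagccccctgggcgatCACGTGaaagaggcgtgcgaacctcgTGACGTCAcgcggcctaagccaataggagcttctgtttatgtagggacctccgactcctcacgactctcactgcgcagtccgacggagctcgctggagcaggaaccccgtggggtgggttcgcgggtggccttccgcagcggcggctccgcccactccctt
Slc25a13, chr6:6217284-6217313: cagcacagtcTGAGTCACGTGtcctggccc
In Slc25a1 the capitals mark an E-box, and in Slc25a36 an E-box followed by a CRE. In Slc25a13, of which 30 bases are given, AP-1 and E-box letters overlap and share bases, and the annotated gene, whose outer end is at 6217304, reaches into this stretch. A match of letters is a description and not evidence of binding.

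The ADP/ATP carriers pass ATP out of the matrix in exchange for ADP, and 2 of 3 rose. Slc25a5, the form typical of dividing cells, rose 3.21-fold (95% CI 2.52 to 4.08, adjusted p = 1.27e-08) at day 2 in WT cells. In WT cells the arrays read 653, 767 and 518 when naive, 2071, 2049 and 2019 at day 2, 1571, 1172 and 1872 at 2.2 ng/ml and 1256, 1184 and 1519 at 10 ng/ml. In DKO cells they read 581, 854 and 566 when naive, 1839, 2139.6 and 1869 at day 2, 1297, 1431 and 1456 at 2.2 ng/ml and 1611, 1803 and 1685 at 10 ng/ml. All activated arrays of both genotypes lay above all naive ones, and day 2 was the peak in both. The rise was 2.37-fold at 2.2 and 2.06-fold at 10 ng/ml in WT, and 2.97-fold, 2.13-fold and 2.59-fold in DKO cells. The other 2 probe sets of Slc25a5 gave 3.47-fold and 3.21-fold at day 2 in WT cells. Slc25a4, the form best known from heart and muscle, read 310, 236 and 124 when naive, 548, 602 and 600.3 at day 2, 588, 487 and 563 at 2.2 ng/ml and 608, 536 and 617 at 10 ng/ml in WT cells. It read 216, 293 and 228 when naive, 542, 595 and 596 at day 2, 533, 494 and 542 at 2.2 ng/ml and 614, 677 and 684 at 10 ng/ml in DKO cells. Its rises in WT were 2.79-fold (95% CI 2.1 to 3.72, adjusted p = 1.32e-06), 2.61-fold and 2.81-fold, with no overlap between naive and activated arrays. These paralogs are similar in sequence and their probe sets may share signal. Slc25a31, a germ cell form, was dim throughout, with group means of 6.83 to 8.08.

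Phosphate enters the matrix through Slc25a3, which feeds ATP synthase. It stood at 611 ± 70.2 in naive WT cells and 862 ± 43.9 at day 2, a rise of 1.42-fold (95% CI 1.2 to 1.68, adjusted p = 0.00128) that reversed to a log2 value of -0.02 after cyclic loess normalization and fell to 0.06 after quantile normalization, so it has no firm direction. The ATP-Mg/phosphate carriers, which let calcium adjust the adenine nucleotide content of the matrix, included 1 that fell at day 2. Slc25a23 read 49.1, 29.7 and 38.5 when naive, 20.8, 30.4 and 21.1 at day 2, 35.2, 39.2 and 32.6 at 2.2 ng/ml and 45.7, 39.5 and 33.2 at 10 ng/ml in WT cells and 39.8, 51.9 and 42.9 when naive, 35.2, 28.6 and 28.2 at day 2, 43.5, 56.2 and 44.6 at 2.2 ng/ml and 46.3, 48.3 and 44.9 at 10 ng/ml in DKO cells. Day 2 levels were lower, by 1.61-fold (95% CI 1.26 to 2.07, adjusted p = 0.00261) in WT and 1.46-fold (95% CI 1.14 to 1.88, adjusted p = 0.0185) in DKO cells, and day 4 levels were near the naive ones. The DKO call was lost without naive replicate 2 (adjusted p = 0.106) or day 2 replicate 2 or 3 (0.0676 and 0.0753). Slc25a25, a form also known for its response to calcium, read 42.7, 43.6 and 35.6 when naive, 41.3, 34.1 and 35.5 at day 2, 37.6, 29.5 and 27.4 at 2.2 ng/ml and 27.4, 33.1 and 26.5 at 10 ng/ml in WT cells. Its DKO arrays read 34.4, 32.8 and 34 when naive, 38.9, 40.3 and 30.2 at day 2, 34.2, 30.1 and 37.3 at 2.2 ng/ml and 41, 30.2 and 32.5 at 10 ng/ml. It was lower in WT cells at 10 ng/ml, by 1.4-fold (95% CI 1.14 to 1.74, adjusted p = 0.0114), a call lost without replicate 3 of that group (adjusted p = 0.0548), and was called in no DKO comparison. Slc25a41 was dim, with group means of 17.4 to 19.2.

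Slc25a1, the citrate carrier, which hands citrate to the cytosol as a source of acetyl groups, had the largest rise of any carrier at 10 ng/ml. WT arrays stood at 52.6, 86.4 and 55.6 when naive, 222, 259 and 157 at day 2, 171, 175 and 169 at 2.2 ng/ml and 379, 441 and 429 at 10 ng/ml. In DKO cells they read 48, 75.4 and 58.2 when naive, 159, 159 and 199 at day 2, 114, 123 and 132 at 2.2 ng/ml and 326, 379 and 373 at 10 ng/ml. In each genotype the naive arrays were lowest, the 2.2 ng/ml and day 2 arrays lay between, and the 10 ng/ml arrays were highest without overlap. Over naive cells it rose 3.29-fold (95% CI 2.53 to 4.28, adjusted p = 3.93e-08), 2.71-fold and 6.57-fold (95% CI 5.05 to 8.55, adjusted p = 1.4e-11) in WT, and 2.88-fold, 2.06-fold and 6.02-fold (95% CI 4.63 to 7.84, adjusted p = 4.23e-11) in DKO cells. Of the other carriers of this class, Slc25a11 exchanges oxoglutarate for malate and is a limb of the malate-aspartate shuttle. It read 87.3, 112 and 55.9 when naive, 127, 141 and 144 at day 2, 178, 163 and 206 at 2.2 ng/ml and 189, 158 and 221 at 10 ng/ml in WT cells, and 90.6, 85.6 and 115 when naive, 169, 127 and 83.1 at day 2, 153, 160.2 and 152 at 2.2 ng/ml and 194, 223 and 190.1 at 10 ng/ml in DKO cells. WT cells had rises of 1.67-fold, 2.22-fold and 2.29-fold (95% CI 1.68 to 3.12, adjusted p = 8.07e-05), with the highest arrays at day 4. The day 2 rise was lost without naive WT replicate 3 (adjusted p = 0.0895) and after cyclic loess or quantile normalization (0.0546 and 0.0526). Slc25a10, the dicarboxylate carrier, rose from 33.7 ± 5.97 to 49.4 ± 5.32 at day 2 in WT cells (1.48-fold) and from 36.7 ± 4.11 to 55.5 ± 8.44 in DKO cells (1.51-fold). These calls were lost without naive WT replicate 2 or day 2 WT replicate 1 (adjusted p = 0.076 and 0.0533), and without day 2 DKO replicate 2 (0.0656). Slc25a21, the oxodicarboxylate carrier, had group means of 5.22 to 6.66, near the floor of the array.

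**Figure D2:**
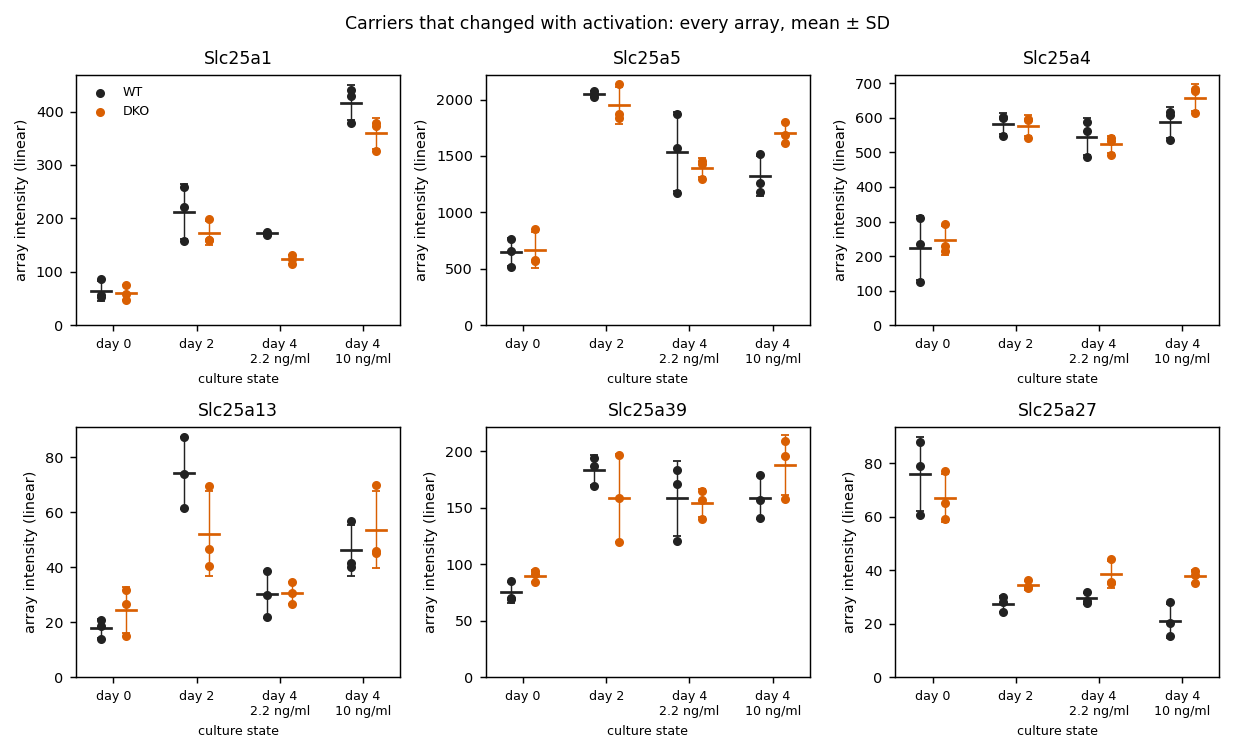
Array intensity (linear, from 0) of 6 carriers that changed with activation, for naive cells, day 2 and both doses at day 4. Points are single arrays, black for WT and orange for DKO, with horizontal bars for the mean and vertical bars for the SD over 3 arrays. Slc25a1 is highest at 10 ng/ml in both genotypes, Slc25a5 peaks at day 2, and Slc25a27 is highest in naive cells.

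The aspartate/glutamate carriers are the other limb of that shuttle and export aspartate. Slc25a13 (citrin) rose 4.16-fold (95% CI 2.89 to 6, adjusted p = 4e-07) at day 2 in WT cells, the largest rise of that day. The WT arrays were 20.9, 18.7 and 14.1 when naive, 61.4, 87.4 and 74.1 at day 2, 29.9, 21.9 and 38.7 at 2.2 ng/ml and 41.5, 40.3 and 56.9 at 10 ng/ml. The DKO arrays read 31.6, 26.6 and 15.2 when naive, 69.6, 46.8 and 40.4 at day 2, 26.7, 30.6 and 34.7 at 2.2 ng/ml and 46, 69.9 and 45.1 at 10 ng/ml. Day 2 held the highest WT arrays, and the day 4 arrays lay between those and the naive range. In DKO cells it rose 2.18-fold (95% CI 1.51 to 3.14, adjusted p = 0.0012) at day 2 and 2.25-fold at 10 ng/ml, and the difference between the genotypes in the day 2 rise did not pass (log2 -0.94 ± 0.36, adjusted p = 0.227). Slc25a12 (aralar), the calcium-responsive partner carrier, was higher in WT cells at 2.2 ng/ml (379.8 ± 19.1 against 263 ± 48.6, 1.46-fold, 95% CI 1.24 to 1.73, adjusted p = 0.000712). It was also higher at 10 ng/ml (1.25-fold), but neither call held after cyclic loess normalization (adjusted p = 0.261 and 0.625), and the latter was lost without naive replicate 2 or 10 ng/ml replicate 1 or 3 (0.0584 to 0.273). Of the 2 glutamate carriers 1 fell. Slc25a18 read 47.9, 47.9 and 36.6 when naive, 23.7, 31.5 and 21.2 at day 2, 30.4, 35.4 and 23 at 2.2 ng/ml and 30.9, 30.4 and 24.9 at 10 ng/ml in WT cells. Its DKO arrays read 42.8, 32.4 and 46.3 when naive, 36.9, 29.6 and 32.5 at day 2, 28.8, 36.3 and 39.9 at 2.2 ng/ml and 25.7, 26.9 and 24.1 at 10 ng/ml. It was lower by 1.75-fold (95% CI 1.35 to 2.25, adjusted p = 0.000697) in WT cells of day 2, and by 1.57-fold in DKO cells of the high dose. Slc25a22 had group means of 27.4 to 37.1 and was never called.

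Among the amino acid carriers, Slc25a15, which moves ornithine, rose at day 2 from 44.4 ± 5.36 to 79.3 ± 13.5 in WT cells (1.78-fold, 95% CI 1.38 to 2.28, adjusted p = 0.000422) and from 39.6 ± 5.15 to 58.1 ± 9.05 in DKO cells (1.47-fold). The DKO call was lost without naive replicate 2 or day 2 replicate 1 (adjusted p = 0.103 and 0.105). Its level was 41.9 ± 5.24 in WT cells at 10 ng/ml. Slc25a44, the carrier of branched-chain amino acids, was lower at the high dose. Its arrays read 81.9, 78.5 and 45.5 when naive, 80.7, 84.9 and 69.5 at day 2, 57.8, 45.5 and 57.6 at 2.2 ng/ml and 38.2, 41.2 and 51.1 at 10 ng/ml in WT cells, and 71.8, 68.8 and 74 when naive, 52, 49.7 and 87.5 at day 2, 52.4, 54.4 and 52.6 at 2.2 ng/ml and 55.7, 37.3 and 33.1 at 10 ng/ml in DKO cells. The fall at 10 ng/ml was 1.54-fold in WT and 1.74-fold (95% CI 1.28 to 2.38, adjusted p = 0.00518) in DKO cells. The naive and 10 ng/ml arrays overlapped in WT and not in DKO cells, and the WT call was lost without replicate 1 or 2 of either state (adjusted p = 0.0676 to 0.134). Slc25a2, a second ornithine carrier, was called lower at day 2 in WT cells, but its naive arrays read 61.8, 17.5 and 24, and the call was lost without the bright replicate 1 (adjusted p = 0.284) or day 2 replicate 2 or 3 (0.119 and 0.0898). Slc25a29 and Slc25a38, carriers of basic amino acids and of glycine for haem synthesis, had group means of 27 to 32.2 and 36.4 to 47.8. Slc25a20, which brings in acylcarnitines for fatty acid oxidation, ranged over 43.5 to 69. None of these 3 passed in any comparison.

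The cofactor and nucleotide carriers differed in when they were called. Slc25a32, which supplies folate or FAD to the matrix, rose from 71.6 ± 10.9 to 151 ± 12.3 in WT cells (2.12-fold, 95% CI 1.55 to 2.89, adjusted p = 0.000257). At day 4 it stood at 73.6 ± 29.97 and 78.8 ± 19.2 and was not called. In DKO cells it went from 88.6 ± 8.84 to 118 ± 17.7, which did not pass (adjusted p = 0.187). Slc25a33, a pyrimidine nucleotide carrier, rose from 12.2 ± 2.35 to 31.4 ± 6.88 (2.56-fold, 95% CI 1.8 to 3.64, adjusted p = 7.66e-05) from a level below the median probe set, and was 1.6-fold higher at 10 ng/ml. The latter call was lost without naive WT replicate 1 or 2 or replicate 2 or 3 of that dose (adjusted p = 0.0555 to 0.153). In DKO cells it stood at 18.5 ± 1.73 at day 2 (1.47-fold, 95% CI 1.03 to 2.09, adjusted p = 0.101). Slc25a16, linked to coenzyme A, was higher in all 3 activated WT states, by 2.45-fold (95% CI 1.53 to 3.91, adjusted p = 0.00268), 2.13-fold and 1.91-fold, from 37.2 ± 11.3. Its naive DKO arrays spread from 18.9 to 67.9, and no DKO rise was called. The WT call at 2.2 ng/ml was lost without naive replicate 2 (adjusted p = 0.0937) or 2.2 ng/ml replicate 3 (0.0593), and that at 10 ng/ml without naive replicate 2 or any replicate at that dose (0.0545 to 0.158). Slc25a42, also a coenzyme A carrier, and Slc25a26, which brings in S-adenosylmethionine, ranged over 59.4 to 79.3 and 29.1 to 39.2 and were never called. Slc25a17, a cofactor carrier of the peroxisome and not of mitochondria, is described with the genotype differences.

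Glutathione enters mitochondria through Slc25a39 and its close relative Slc25a40. Slc25a39 read 85.6, 69.5 and 70.3 when naive, 194, 187 and 169 at day 2, 171, 121 and 183 at 2.2 ng/ml and 179, 157 and 141 at 10 ng/ml in WT cells, and 93.7, 84.1 and 91.6 when naive, 159, 197 and 119.6 at day 2, 157, 140.4 and 165 at 2.2 ng/ml and 196, 209 and 158 at 10 ng/ml in DKO cells. No activated array overlapped the naive arrays. The rises were 2.45-fold (95% CI 1.93 to 3.11, adjusted p = 7.61e-07), 2.09-fold and 2.11-fold in WT, then 1.73-fold, 1.72-fold and 2.08-fold in DKO cells. Of the 2 iron importers, or mitoferrins, Slc25a28 stayed at 109 to 135 over the 8 groups, and Slc25a37 changed in WT cells, as described with the genotype differences.

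Slc25a27, an uncoupling-protein-like carrier also called Ucp4, was the one carrier that fell in every activated state. In WT cells the arrays read 60.7, 87.9 and 79.1 when naive, 24.3, 28.2 and 30.2 at day 2, 28.6, 32 and 27.9 at 2.2 ng/ml and 20.2, 28 and 15.3 at 10 ng/ml. In DKO cells the arrays read 59.3, 76.9 and 65.2 when naive, 33.9, 33.2 and 36.4 at day 2, 35.4, 44.3 and 35.8 at 2.2 ng/ml and 35.2, 38.3 and 39.9 at 10 ng/ml. No activated array reached the naive range in either genotype. The falls were 2.73-fold (95% CI 2.14 to 3.49, adjusted p = 1.75e-07), 2.55-fold and 3.65-fold (95% CI 2.86 to 4.66, adjusted p = 2.88e-09) in WT, and 1.94-fold, 1.74-fold and 1.77-fold in DKO cells. At 10 ng/ml the WT arrays were at or below the median probe set, so the fold there is understated. Slc25a14, of the same class, ranged over 46.8 to 57.5 with no call.

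Of the 9 carriers of unsettled substrate, 1 was higher and 4 were lower in WT cells at day 2. Slc25a35 read 64.9, 113 and 53.2 when naive, 32.8, 38.5 and 35.7 at day 2, 71.4, 60.02 and 66.3 at 2.2 ng/ml and 56.2, 43.5 and 39.5 at 10 ng/ml in WT cells and 88.4, 98.6 and 51.2 when naive, 44.5, 45 and 27 at day 2, 71.3, 55.2 and 64.3 at 2.2 ng/ml and 42.3, 35.7 and 31.3 at 10 ng/ml in DKO cells. Levels were lower by 2.05-fold (95% CI 1.45 to 2.91, adjusted p = 0.00137) at day 2 in WT cells, 2.02-fold at day 2 in DKO cells, 1.59-fold at 10 ng/ml in WT cells and 2.11-fold at 10 ng/ml in DKO cells, with levels at 2.2 ng/ml near the naive ones. The WT call at 10 ng/ml was lost in 5 of 13 alternatives, among them without naive replicate 2 or 10 ng/ml replicate 2 or 3 (adjusted p = 0.0824 to 0.257). Slc25a45 read 54.9, 60.1 and 49.6 when naive, 24, 35.8 and 34.3 at day 2, 60.5, 44.5 and 41.2 at 2.2 ng/ml and 35.5, 41 and 38.4 at 10 ng/ml in WT cells, and 45.4, 64.2 and 52.4 when naive, 52.4, 34.3 and 35.4 at day 2, 77.4, 69.2 and 83.9 at 2.2 ng/ml and 73.2, 41.4 and 43.5 at 10 ng/ml in DKO cells. Its WT arrays at day 2 lay below all naive ones (1.77-fold, 95% CI 1.32 to 2.38, adjusted p = 0.00224). The liver-type carriers Slc25a47 and Slc25a48 were dim, and their small falls at day 2 in WT cells (1.31-fold and 1.36-fold) were lost after cyclic loess normalization (adjusted p = 0.264 and 0.0895), and that of Slc25a47 without replicate 1 or 3 of either state (0.0608 to 0.134). Slc25a48 read 19.2, 18.4 and 19.6 when naive, 15.7, 12.3 and 14.2 at day 2, 14.2, 15.2 and 16 at 2.2 ng/ml and 14, 16.8 and 15.9 at 10 ng/ml in WT cells and 17.3, 16.5 and 17.1 when naive, 16.7, 14.4 and 15.9 at day 2, 17.6, 16.7 and 16.3 at 2.2 ng/ml and 18.8, 15.8 and 17.1 at 10 ng/ml in DKO cells. Slc25a46, an outer membrane protein tied to mitochondrial fusion and fission, was higher in WT cells at day 2 (188 ± 16.1 against 124 ± 24.2, 1.52-fold, 95% CI 1.18 to 1.96, adjusted p = 0.00784), a call also lost under cyclic loess and quantile normalization (adjusted p = 0.152 and 0.21). Slc25a34, Slc25a43, Slc25a53 and Slc25a54 were all dim and were never called.

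Genotype was compared within each state. Between naive DKO and WT cells limma called 0 carriers, beside 0.0652% of all genes (0.0552% higher and 0.01% lower), and 1 carrier (Slc25a37) had an unadjusted p under 0.05. At day 2, 0 carriers were higher (1.03% of all genes) and 2 lower (1.68%) in DKO cells: Slc25a37 and Slc25a17. In the fit over all probe sets the second one of Slc25a36 was lower too, as given below. At 2.2 ng/ml limma called 0, beside 3.71% of all genes, and 7 carriers had an unadjusted p under 0.05, the lowest for Slc25a45 (0.00331). The share of all genes with an unadjusted p under 0.05 was not counted, so these unadjusted counts are not read as a result about the carriers. At 10 ng/ml 1 carrier, Slc25a27, was higher (6.68% of all genes), and 4, Slc25a24, Slc25a30, Slc25a36 and Slc25a51, were lower (6.09%). In bulk RNA, fewer cells with a transcript and less of it per cell cannot be told apart. The summed B cell markers were also higher in DKO cells at 10 ng/ml (107 to 153, against 62.1 to 68.3 in WT), with 1 of 4 above the median probe set, as were the NK markers (51.3 to 79.97, against 30.9 to 36.3, with 1 of 3 above it). The B cell difference lay in Cd79b, with means of 88.8 in DKO and 27.2 in WT cells. In the same order Cd79a stood at 11.4 and 14.2, Ms4a1 at 6.17 and 6.78, and Pax5 at 17.3 and 16.1. The NK difference lay mostly in Eomes (46.8 and 19.1), with Klrb1c at 8.59 and 5.95 and Ncr1 at 8.18 and 8.89. The 6 TH2 markers summed to 1210 to 1400.5 in DKO and 4682 to 5851 in WT cells at that dose. The part of these markers in the carrier differences was not tested.

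Slc25a37, mitoferrin-1, which imports iron for haem and iron-sulfur clusters, had the largest genotype difference in response among the called carriers by size. Its WT arrays read 39.3, 54.5 and 32.1 when naive, 102, 127 and 129.6 at day 2, 59.1, 53.6 and 67.3 at 2.2 ng/ml and 64.3, 48.9 and 80.3 at 10 ng/ml. The DKO arrays read 74.3, 59 and 71.6 when naive, 69.8, 68.1 and 71.5 at day 2, 101, 83.1 and 84.5 at 2.2 ng/ml and 66.5, 62.8 and 49.9 at 10 ng/ml. In WT cells the day 2 arrays stood above those of every other state, a rise of 2.9-fold (95% CI 2.24 to 3.76, adjusted p = 1.67e-07). In DKO cells the naive and day 2 arrays overlapped, with a change of 1.03-fold (95% CI 0.794 to 1.33, adjusted p = 0.92). The difference between these responses was -1.50 ± 0.25 on the log2 scale (adjusted p = 0.00284) and was called in each of the 19 alternatives run. It was the only carrier called in that interaction, as 0 higher (0.306% of all genes) and 1 lower (0.742%). It combined a higher naive level in DKO cells (1.66-fold, 95% CI 1.28 to 2.15, adjusted p = 0.206, not called) with a day 2 level lower by 1.7-fold (95% CI 1.31 to 2.2, adjusted p = 0.0179), and the latter was lost when WT day 2 replicate 2 or 3, or DKO day 2 replicate 2 or 3, was left out (adjusted p = 0.0529 to 0.0873), and with quantile normalization (0.0892). The 3 erythroid markers measured summed to 82.3 to 86.9 in WT and 73.2 to 94.4 in DKO cells at day 2, overlapping ranges. The CD8, myeloid and NK sums overlapped there as well. Other sums did not, in DKO against WT cells: B cell 71.6 to 85.1 and 51 to 62.6, and dendritic cell 65.1 to 67.2 and 56.1 to 60.3. CD4 T cell sums were 6179 to 6992 and 5284 to 5677, and TH2 sums 1217 to 1371 and 2770.3 to 2936. The part of these markers in the day 2 differences was not tested.

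Slc25a17, the peroxisomal carrier of coenzyme A, FAD and NAD, was the other carrier lower in DKO cells at day 2. In WT cells it read 64.3, 88.8 and 72.4 when naive, 224, 189 and 199 at day 2, 139, 105 and 115 at 2.2 ng/ml and 175, 169 and 119 at 10 ng/ml, and in DKO cells 70.5, 97.8 and 74.1 when naive, 123, 145 and 96.9 at day 2, 107, 139.8 and 139 at 2.2 ng/ml and 171, 167 and 148 at 10 ng/ml. At day 2 the highest DKO array was below the lowest WT array, a difference of 1.7-fold (95% CI 1.32 to 2.19, adjusted p = 0.015), which was lost without WT replicate 1 (adjusted p = 0.0872) or DKO replicate 3 (0.115). At day 4 the genotypes overlapped. It rose in all 3 activated states of both genotypes, by 2.73-fold (95% CI 2.13 to 3.52, adjusted p = 2.79e-07) at day 2 in WT and 1.5-fold in DKO cells, and the difference between these rises did not pass (log2 -0.87 ± 0.25, adjusted p = 0.0947). The DKO rise was lost without naive replicate 1 or 3 or day 2 replicate 2 (adjusted p = 0.0533 to 0.0923).

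**Figure D3:**
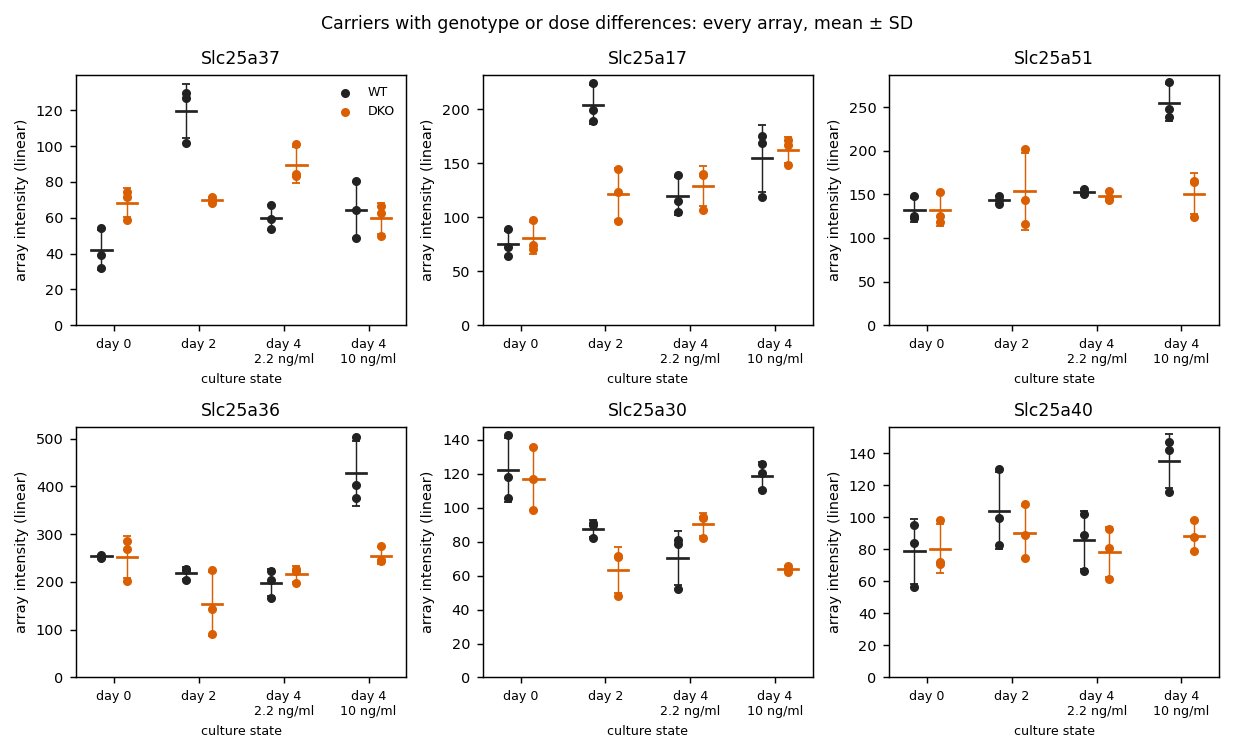
Array intensity (linear, from 0) of 6 carriers with genotype or dose differences, for naive cells, day 2 and both doses at day 4. Points are single arrays, black for WT and orange for DKO, with horizontal bars for the mean and vertical bars for the SD over 3 arrays. Slc25a37 is highest in WT cells at day 2. Slc25a51 and Slc25a36 are highest in WT cells at 10 ng/ml, where all 3 WT arrays lie above all DKO arrays, as they also do for Slc25a30 and Slc25a40.

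At 10 ng/ml the carriers lower in DKO cells included Slc25a51 and Slc25a36. Slc25a51 brings NAD into the matrix. In WT cells it read 148, 123 and 125 when naive, 148, 143 and 139.5 at day 2, 156, 152 and 149.9 at 2.2 ng/ml and 248, 279 and 239 at 10 ng/ml, level until the high dose. In DKO cells it read 118, 125 and 153 when naive, 143, 202 and 116 at day 2, 154, 143 and 146 at 2.2 ng/ml and 165, 164 and 124 at 10 ng/ml and showed no such step. DKO cells were lower by 1.7-fold (95% CI 1.36 to 2.12, adjusted p = 0.00106) at 10 ng/ml, and no array overlapped. Slc25a33, a pyrimidine nucleotide carrier, was not called between genotypes. Slc25a36, of the same class, moves pyrimidine nucleotides and guanine nucleotides. Its WT arrays read 252, 251 and 257 when naive, 205, 227 and 224 at day 2, 223, 205 and 167 at 2.2 ng/ml and 504, 375 and 404 at 10 ng/ml, and its DKO arrays 203, 269.8 and 286 when naive, 224, 91.6 and 144 at day 2, 223, 198 and 228 at 2.2 ng/ml and 243, 247 and 275 at 10 ng/ml. It was 1.67-fold (95% CI 1.24 to 2.23, adjusted p = 0.016) lower in DKO cells at 10 ng/ml. That call was lost without WT replicate 1 (adjusted p = 0.102) or DKO replicate 1 or 2 (0.0601 and 0.0559). The second, dimmer probe set of the gene gave a log2 difference of -1.02 (adjusted p = 0.00366, over all probe sets). At day 2 that probe set gave -0.89 (adjusted p = 0.0392) and the brightest -0.61 (0.126) in the same fit. In DKO cells both fell from naive to day 2 (log2 -0.83 and -0.80, adjusted p = 0.00823 and 0.00384). The fall of the brightest was called in 13 of 13 alternatives, though its naive and day 2 arrays overlapped.

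Slc25a30, an uncoupling-protein-like carrier of the kidney type, was the carrier whose genotype difference at 10 ng/ml had the smallest adjusted p. Its WT arrays read 106, 143 and 118 when naive, 91.3, 82 and 89.6 at day 2, 78.5, 80.8 and 52.3 at 2.2 ng/ml and 126, 120.4 and 110.5 at 10 ng/ml. Its DKO arrays read 98.6, 136 and 117 when naive, 71.8, 71 and 48 at day 2, 93.9, 94.3 and 82.5 at 2.2 ng/ml and 65.5, 63.6 and 62.1 at 10 ng/ml. In WT cells it dipped at 2.2 and returned to the naive range at 10 ng/ml, while in DKO cells the 10 ng/ml arrays were among the lowest. DKO cells were lower at 10 ng/ml by 1.86-fold (95% CI 1.47 to 2.37, adjusted p = 0.000388). Slc25a27, by contrast, was higher in DKO cells there, by 1.84-fold (95% CI 1.44 to 2.35, adjusted p = 0.000664), with the lowest arrays of any state in WT cells. Slc25a24, an ATP-Mg/phosphate carrier, was dim. Its WT arrays read 21.8, 15.2 and 16.1 when naive, 15.9, 14.9 and 16.2 at day 2, 13.8, 17 and 14.2 at 2.2 ng/ml and 33, 25.1 and 14.2 at 10 ng/ml, and its DKO arrays 21.3, 23.7 and 19.6 when naive, 15.1, 18.3 and 11.9 at day 2, 9.79, 14.4 and 13.3 at 2.2 ng/ml and 12.5, 17.4 and 10.8 at 10 ng/ml. Its DKO level at 10 ng/ml was called 1.71-fold (95% CI 1.23 to 2.38, adjusted p = 0.026) lower, but 1 WT array overlapped the DKO range and the call was lost without WT replicate 1 (adjusted p = 0.222) or 2 (0.101) or DKO replicate 1 (0.0923) or 3 (0.142).

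**Figure D4:**
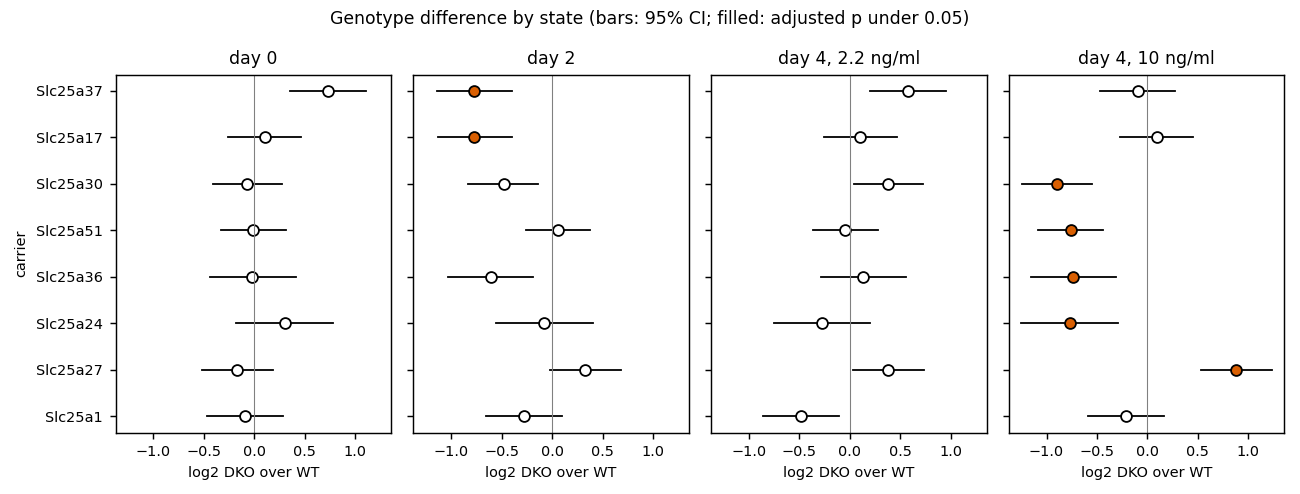
Log2 difference between DKO and WT cells for 8 carriers in each of the 4 states, with 95% CI from limma. Filled points passed at an adjusted p under 0.05. At day 0 and 2.2 ng/ml no point is filled. At day 2 Slc25a37 and Slc25a17 lie at -0.77, and at 10 ng/ml Slc25a30, Slc25a51, Slc25a36 and Slc25a24 lie between -0.90 and -0.74 and Slc25a27 at 0.88.

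Dose was compared at day 4 within each genotype. In WT cells 5 carriers were higher at 10 than at 2.2 ng/ml (7.64% of all genes) and 1 lower (7.52%). In DKO cells 1 was higher (4.47%) and 2 were lower (3.68%), beside 8.15% in either direction. Slc25a1 was the only carrier called in both: it rose 2.42-fold (95% CI 1.86 to 3.15, adjusted p = 1.66e-05) in WT and 2.92-fold (95% CI 2.24 to 3.8, adjusted p = 2.78e-06) in DKO cells, and its dose response did not differ detectably between genotypes (log2 0.27 ± 0.26, 95% CI as a ratio 0.83 to 1.75, adjusted p = 0.711). The citrate carrier thus stepped up with dose in both genotypes.

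The other dose responses of WT cells were Slc25a36 (2.16-fold, 95% CI 1.61 to 2.89, adjusted p = 0.000331), Slc25a30 (1.72-fold, 95% CI 1.35 to 2.18, adjusted p = 0.00151), Slc25a51 (1.67-fold, 95% CI 1.34 to 2.08, adjusted p = 0.00126), Slc25a40 (1.59-fold, 95% CI 1.18 to 2.15, adjusted p = 0.0303) and the fall of Slc25a27 (1.43-fold, 95% CI 1.12 to 1.83, adjusted p = 0.0397). In DKO cells the same carriers changed by 1.18-fold (95% CI 0.88 to 1.58), 1.41-fold (95% CI 1.11 to 1.79) lower, 1.02-fold (95% CI 0.814 to 1.27), 1.14-fold (95% CI 0.843 to 1.54) and 1.02-fold (95% CI 0.796 to 1.3) lower, and none was called. For Slc25a40, the second glutathione carrier, the WT arrays read 56.4, 84.2 and 95.3 when naive, 129.9, 99.5 and 82.5 at day 2, 66.3, 102 and 88.7 at 2.2 ng/ml and 147, 116 and 142 at 10 ng/ml. Its DKO arrays read 70.7, 72.1 and 98 when naive, 88.6, 74.6 and 108 at day 2, 61.4, 92.5 and 80.8 at 2.2 ng/ml and 78.8, 98.3 and 87.6 at 10 ng/ml. Its 3 WT arrays at 10 ng/ml were above all DKO arrays of that dose, yet the genotype difference did not pass for this probe set (adjusted p = 0.0587). The second probe set passed for genotype (log2 -0.73, adjusted p = 0.00869, over all probe sets). For dose in WT cells that second probe set did not pass (log2 0.54, adjusted p = 0.0509, over all probe sets). The dose call of Slc25a40 was lost without WT replicate 1 or 3 of either dose (adjusted p = 0.053 to 0.188), and that of Slc25a27 without any replicate at 2.2 or replicate 1 or 3 at 10 ng/ml (0.0614 to 0.286). The 2 falls with dose in DKO cells, Slc25a35 (1.75-fold, 95% CI 1.23 to 2.49, adjusted p = 0.0411) and Slc25a37 (1.5-fold, 95% CI 1.16 to 1.94, adjusted p = 0.0439), were each lost without any DKO replicate at 2.2 or replicate 2 or 3 at 10 ng/ml (adjusted p = 0.0541 to 0.168 and 0.0704 to 0.222), and that of Slc25a37 also with the replicate block (0.0562).

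**Figure D5:**
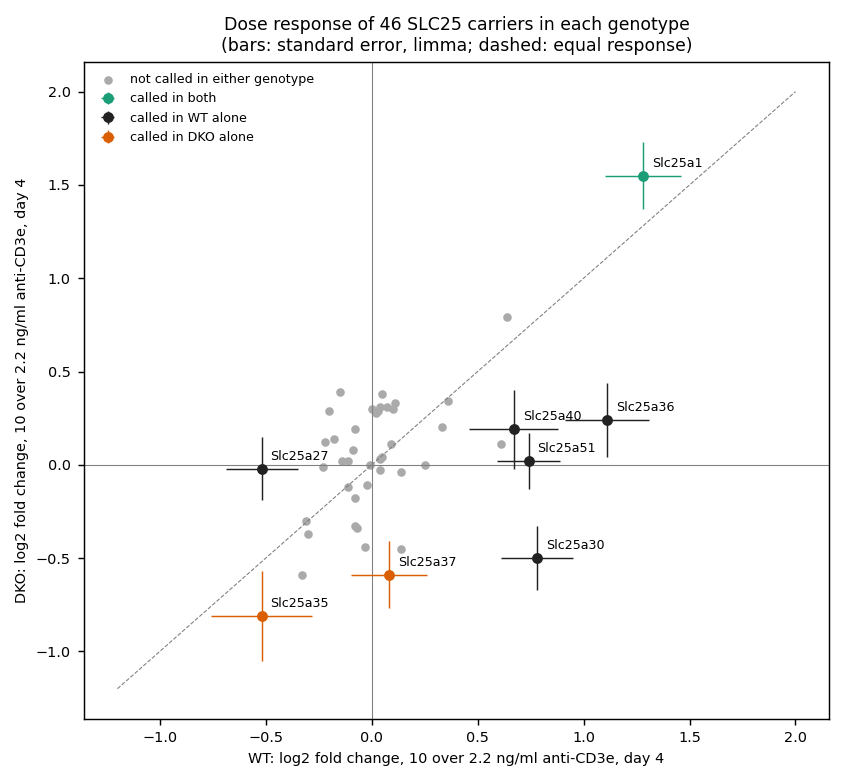
Log2 change of each of the 46 carriers from 2.2 to 10 ng/ml at day 4, in WT cells (horizontal) and DKO cells (vertical), with standard errors for the called carriers. The dashed line marks equal response. Slc25a1 (1.28 and 1.55) is high on both axes, Slc25a36, Slc25a51 and Slc25a40 lie near 0 in DKO cells, and Slc25a30 rises in WT (0.78) and reads -0.50 in DKO cells.

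The interaction of dose and genotype was called for 0 carriers higher (3.56% of all genes) and 2 lower (3.38%), beside 6.94% in either direction. For Slc25a30 the dose response in DKO cells, less that in WT cells, was -1.28 ± 0.24 on the log2 scale (adjusted p = 0.000882), a call kept in each of the 19 alternatives. For Slc25a51 the interaction was -0.72 ± 0.22 (adjusted p = 0.0483) and was lost in 11 of 19 alternatives: without any replicate at 2.2 ng/ml, without WT replicate 1 or 2 or DKO replicate 2 or 3 at 10 ng/ml, and with a variance trend (adjusted p = 0.0518 to 0.147). Slc25a36 missed the threshold (-0.87 ± 0.29, adjusted p = 0.0742), and its second probe set passed (-1.37, adjusted p = 0.011, over all probe sets). Neither probe set of Slc25a40 passed (-0.48 and -0.69, adjusted p = 0.464 and 0.139, over all probe sets). Over the whole change from naive cells to 10 ng/ml, 1 carrier had a higher log2 response in DKO cells (2.64% of all genes), Slc25a27 (1.05 ± 0.24, adjusted p = 0.00662, kept in all 19 alternatives). This was a smaller fall, as its mean went from 75.9 to 21.2 in WT and from 67.2 to 37.8 in DKO cells. Another 2 had a lower response (3.88%, or 6.52% in either direction), Slc25a30 (-0.83 ± 0.24, adjusted p = 0.0316) and Slc25a51 (-0.76 ± 0.22, adjusted p = 0.0369), and these were lost in 9 and 8 of 19 alternatives, of which all but quantile normalization for Slc25a51 left out a single naive or 10 ng/ml array (adjusted p = 0.0536 to 0.097 and 0.0505 to 0.122). The second probe sets of Slc25a36 (-1.24, adjusted p = 0.0217) and Slc25a40 (-1.08, adjusted p = 0.0114) passed here in the fit over all probe sets. Their brightest probe sets did not pass in that fit (-0.72 and -0.66, adjusted p = 0.184 and 0.26), so the probe sets of each gene disagree on the call.

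Genes that work with the carriers were counted beside them. Of 15 genes for protein import and outer membrane channels, which deliver carriers to the inner membrane and pass their substrates, 14 were higher and 0 lower in WT cells at day 2 (19.7% and 20.5% of all genes), and 14 and 0 in DKO cells (15.3% and 13.3%). The counts of the other lists at day 2 are read against the same shares. Vdac1, a channel through which ATP and ADP cross the outer membrane, rose 5.96-fold at day 2 and 9.02-fold at 10 ng/ml in WT cells (adjusted p = 6.57e-11 and 1.34e-12), and Tomm20, an import receptor, 2.82-fold at day 2. Vdac1 was also the one member of that list higher at 10 than at 2.2 ng/ml in WT cells (2.49-fold) and lower in DKO than WT cells at 10 ng/ml (1.56-fold, adjusted p = 0.0241). Its dose response in DKO cells was 1.83-fold (adjusted p = 0.00342). Among 16 other inner membrane transporters, 7 were higher and 3 lower at day 2 in WT cells, with the serine transporter Sfxn1 up 3.76-fold.

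The enzymes on either side of the citrate and malate-aspartate carriers rose with them: 6 of 8 were higher and 0 lower at day 2 in WT cells, among them Got2, the matrix aspartate aminotransferase (5.24-fold), Mdh2 (2.73-fold) and the citrate synthase Cs (2.25-fold). At 10 ng/ml Mdh1, the cytosolic malate dehydrogenase, was 1.52-fold lower in DKO than WT cells (adjusted p = 0.000348) and Cs 1.36-fold lower (adjusted p = 0.0176). Mdh1 also rose with dose in WT cells (1.85-fold, adjusted p = 2.1e-06), and its dose response was lower in DKO cells (log2 -0.55, adjusted p = 0.0319). Of 9 mitochondrial one-carbon enzymes, which use folate (Slc25a32 is classed under folate or FAD), 5 rose at day 2 in WT cells. Shmt2 (7.62-fold) and Mthfd2 (3.08-fold) led them, and both were higher in DKO than WT cells at 10 ng/ml (1.56-fold and 1.48-fold, adjusted p = 0.0414 and 0.012). Of 11 iron-sulfur and haem genes, 7 rose at day 2 in WT cells, among them the transferrin receptor Tfrc (12.6-fold) and Alas1, the first enzyme of haem synthesis (2.52-fold). Of 11 mitochondrial biogenesis genes 5 rose and 0 fell at day 2 in WT cells, including Myc (2.55-fold) and Tfam (1.89-fold), but 1 rose in DKO cells. At each dose at day 4, 2 rose and 3 fell in WT cells. The shares of all genes were 16.1% and 13.1% at 2.2 ng/ml and 18.4% and 18% at 10 ng/ml. The median log2 changes of the list were -0.10 and -0.22, beside -0.06 and -0.10 for the median gene. Tfam, Tfb1m and Nrf1 were higher in DKO than WT cells at 10 ng/ml (1.61-fold, 1.82-fold and 1.48-fold), beside 6.68% of all genes.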

How the data were processed

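The authors deposited RMA values on a linear intensity scale, one column per array, per the submitters' processing notes and the file's own values. The RMA version is not given in the sources used here. Of 35556 probe sets, 21789 had a single gene symbol in the platform annotation, 1621 had several and 12146 none. Genes were represented by their brightest probe set (mean log2 over 24 arrays), giving 19938. All 46 carriers matched RefSeq by Entrez identifier and no symbol changed. Group means of log2 intensity were fitted with limma 3.58.1 in R 4.3.3 over 8 groups, with 16 residual and 7.49 prior degrees of freedom, and 15 contrasts were adjusted over all genes by Benjamini-Hochberg. With 3 arrays a group, precision is limited by their number, and residual SDs were 0.148 to 0.21 (log2).

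Named carriers were those called in a genotype, dose or interaction contrast and, per activation contrast, up to 4 largest rises and 4 falls without overlap. In related gene lists up to 4 genes with the smallest p were named. The members, substrate classes and lists were chosen with earlier results of these data known. Alternatives were a filter on dim genes, the mean of probe sets, cyclic loess, quantile normalization, only the compared groups, a replicate block, a variance trend with robust moderation, and leaving out each array. The fit was tested on simulated data.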

Additional observations from a re-analysis of the deposited data

Results flagged for a closer look

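These carriers responded differently in the genotypes by a direct test of the difference (limma interaction, adjusted over all genes), each given as DKO minus WT on the log2 scale. For Slc25a37 the day 2 response differed by -1.50 (adjusted p = 0.00284). Over the change from naive cells to 10 ng/ml the responses differed by 1.05 for Slc25a27 (adjusted p = 0.00662), by -0.83 for Slc25a30 (adjusted p = 0.0316) and by -0.76 for Slc25a51 (adjusted p = 0.0369). From 2.2 to 10 ng/ml they differed by -1.28 for Slc25a30 (adjusted p = 0.000882) and by -0.72 for Slc25a51 (adjusted p = 0.0483). As given above, both differences of Slc25a51, and that of Slc25a30 from naive cells to 10 ng/ml, were lost under several alternatives. The others were kept under every alternative run.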

How the results depend on the processing

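Of 119 carrier and comparison pairs called, 74 were called under every alternative run and 45 were lost under at least 1. The only reversal was Slc25a3 at day 2 in WT cells (log2 -0.02 after cyclic loess). That normalization shifted the median gene at day 2 in WT cells from -0.106 to 0 and reduced the log2 rise of Slc25a5 to 1.13. The count of carriers differing by genotype at day 2 became 1 with quantile normalization, and 3 with the mean of probe sets or the compared groups alone. The count for dose in DKO cells became 5 with the filter on dim genes and 5 with the compared groups alone. The genotype interaction at 10 ng/ml gave 6 with the mean of probe sets and 5 with cyclic loess, and the interaction with dose gave 1 with a variance trend.

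With single arrays left out, the WT counts ran from 22 to 23 at day 2, 10 to 15 at 2.2 ng/ml (the lowest without WT replicate 3) and 15 to 19 at 10 ng/ml. The DKO counts ran from 11 to 13, 7 to 10 and 12 to 14. Genotype counts ran from 0 to 0 (naive), 0 to 3 (day 2, the lowest without DKO replicate 3), 0 to 1 (2.2 ng/ml) and 3 to 5 (10 ng/ml, 3 without replicate 1 of either genotype). Dose counts ran from 4 to 6 in WT and 1 to 4 in DKO cells. Interaction counts ran from 1 to 1 (day 2), 1 to 4 (10 ng/ml) and 1 to 2 (dose).

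No clear pairing by replicate number was seen: same-numbered deviations correlated at -0.14 to 0.26, with no comparison in which all 3 exceeded 0.1. The highest value was between the WT doses at day 4 (0.05, 0.16 and 0.26), and with 3 arrays a group pairing is not excluded. With the replicate block the counts were 24, 17 and 21 in WT and 13, 11 and 13 in DKO cells, 0, 2, 0 and 5 between genotypes, 6 and 3 for dose, and 1, 4 and 2 for the interactions. The count of 3 for dose in DKO cells is not the same carriers: Slc25a37 lost its call under the block (adjusted p = 0.0562). In simulated data for DKO against WT at 10 ng/ml, 10 of 50 genes changed by a log2 of 0.5 and 45 of 50 changed by 1 were recovered, so small differences can be missed. Of 167 calls there, 12 were false. Only 50 genes were changed at each size, whereas 2545 were called in the real comparison, so these shares need not hold for it.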
